A study of Mus musculus with 6 samples.

Results

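Glutamatergic neurons of the mouse ventromedial hypothalamus (VMH) with at least 1 count of Nr5a1 were compared with those in which no Nr5a1 count was recorded. Each of 6 mice at postnatal day 10, 3 female and 3 male, supplied 1 plate of 96 single-cell wells, and all 6 carried the genotype Ai14f/+;Sf1-Cre. Ai14f is a Cre-dependent fluorescent reporter and Sf1-Cre drives recombination in cells with a history of Nr5a1 expression, so the wells of both classes came from a fluorescence-sorted Nr5a1 lineage and no mouse lacked the driver. The series' title concerns estrogen receptor alpha, sex and energy expenditure. The comparison by Nr5a1 asks how neurons with and without a recorded Nr5a1 count differ within that lineage. Of 576 wells, 425 held at least 3000 counts, at least 500 genes with a count and under 25% of counts in mitochondrial genes. All 151 wells left out held under 3000 counts. A count of Slc17a6, the vesicular glutamate transporter VGLUT2 of these neurons, was present in 367 of the 425. Nr5a1 was detected in 135 of the 367 and undetected in 232, and genes were compared within mice on the sums of the 2 classes of wells.

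Nr5a1 encodes steroidogenic factor 1 (SF-1), an orphan nuclear receptor that activates genes through a DNA element of the nuclear receptor half-site type. It is needed for the formation of the VMH, a hypothalamic nucleus that takes part in the control of energy balance, glucose and social behaviour, and it is also the master regulator of steroid-producing cells of the adrenal gland and gonad. In the VMH its expression is broad in the embryo and becomes restricted towards the dorsomedial and central parts, while neurons of the ventrolateral part, many of which have estrogen receptor alpha, derive from the same lineage.

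The genes that differed with Nr5a1 detection included the metallothionein genes Mt1, Mt2 and Mt3, which lie together on chromosome 8 and encode cysteine-rich proteins that bind zinc and copper. In the GRCm38 (mm10) assembly Mt3 is at chr8:94152607-94154146, Mt2 at chr8:94172664-94173568 and Mt1 at chr8:94179082-94180327, all on the plus strand. RefSeq promoters (GRCm38.p6, 250 bases before to 50 after the annotated start) are shown 5′ to 3′ for Mt1, at chr8:94178839-94179138, and Mt2, at chr8:94172368-94172667, because these genes were higher in Nr5a1-detected neurons. The promoter of Comtd1, at chr14:21848861-21849160 on the minus strand, is shown because it was the one promoter with an SF-1 half-site among the genes that differed. Capitals mark matches on either strand to the metal response element core TGCACNC or TGCGCNC in Mt1 and Mt2, and to the SF-1 half-site CAAGGTCA in Comtd1, where the match is on the opposite strand and so reads as its reverse complement.
Mt1: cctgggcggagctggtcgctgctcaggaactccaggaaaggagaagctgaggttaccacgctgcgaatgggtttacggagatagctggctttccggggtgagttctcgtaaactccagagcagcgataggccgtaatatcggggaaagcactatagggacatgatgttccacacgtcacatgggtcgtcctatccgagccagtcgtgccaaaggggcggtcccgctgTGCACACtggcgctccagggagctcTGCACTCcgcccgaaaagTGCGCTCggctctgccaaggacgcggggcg
Mt2: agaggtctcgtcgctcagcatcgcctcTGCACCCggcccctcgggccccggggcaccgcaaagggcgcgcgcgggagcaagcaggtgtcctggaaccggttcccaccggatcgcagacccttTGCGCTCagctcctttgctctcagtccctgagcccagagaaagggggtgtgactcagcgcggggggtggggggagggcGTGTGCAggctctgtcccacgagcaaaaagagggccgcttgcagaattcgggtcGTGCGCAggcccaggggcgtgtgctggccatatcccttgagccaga
Comtd1: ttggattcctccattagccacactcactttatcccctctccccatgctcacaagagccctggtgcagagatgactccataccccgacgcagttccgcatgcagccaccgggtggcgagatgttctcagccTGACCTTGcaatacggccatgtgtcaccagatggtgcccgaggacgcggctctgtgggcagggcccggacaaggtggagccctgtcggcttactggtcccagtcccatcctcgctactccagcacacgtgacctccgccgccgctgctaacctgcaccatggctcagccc

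The metal response core was searched after the metallothionein values were known. Mt1 had 3 matches, Mt2 had 4 and Mt3 had 1. Such a core is common. It was in 25.7% of 32851 RefSeq promoters and in 42.9% of the 2783 tested genes with a promoter, counting a gene once over all its promoters, against 4 of the 11 genes higher in Nr5a1-detected neurons that had a RefSeq promoter (C1ql2, Mt1, Mt2 and Mt3). The SF-1 half-site was in 1.56% of all promoters and in 1.76% of the tested genes with a promoter. It was in 0 of those 11 genes, in 1 of the 6 lower genes with a promoter, and in 0 of 10 genes with a promoter from a list of genes described as SF-1 targets or as dependent on SF-1 in the VMH. These matches describe letters in a short window and not bound sites.

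Wells were chosen by their counts of Slc17a6 and Nr5a1, so these 2 genes are given as a description only. The detected wells held 221 Nr5a1 counts in 1057566 counts: 82 wells had a single count, 29 had 2, 24 had 3 or more, and the highest had 5. The undetected wells held none in 1723898 counts. Nr5a1 in the detected sums had a lowest, median and highest level of 167, 207 and 516 counts per 1000000 counts (CPM), the highest in female 2. Slc17a6 was at 258, 569 and 820 CPM (lowest, median, highest) in detected sums and at 264, 586 and 634 CPM in undetected sums. Since most detected wells stood 1 count from the boundary, an undetected well is one in which Nr5a1 was not sampled at this depth and may still contain the mRNA.

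The share of glutamatergic neurons with Nr5a1 was 36.8% over all wells (exact 95% binomial interval 31.8% to 41.9%, counting error only). By mouse the shares were 54.8%, 40% and 31.2% in females 1, 2 and 3 and 26.2%, 42.6% and 34.1% in males 1, 2 and 3, and the sexes overlapped. The mean was 42.0% ± 12 (SD, n = 3) in females and 34.3% ± 8.19 (SD, n = 3) in males, a difference of -7.66 percentage points (two-sided exact permutation test over 20 assignments, p = 0.5, where 0.1 is the smallest p possible). When each well was thinned to 3000 counts, 74 wells (20.2%) kept a count of Nr5a1, with means of 31.2% ± 16.9 in females and 16.8% ± 3.81 in males (SD, n = 3 each; exact permutation p = 0.400). With the limit on wells lowered to 1500 counts the difference turned to 2.55 points (exact permutation p = 0.900). Of the 58 wells without a Slc17a6 count that passed the other limits, 14 had Nr5a1 (24.1%, exact 95% interval 13.9% to 37.2%). The median depth of the 58 was 5292.5 counts, against 6911 counts in the glutamatergic wells. Glutamatergic wells had medians of 1 to 7 Slc17a6 counts by mouse and class. Some of the 58 may therefore be such neurons in which Slc17a6 was not sampled. A count of a GABAergic gene was in 22 of the 58, of which 3 had Nr5a1, and 36 had none, of which 11 had Nr5a1. Just outside the depth limit, 40 wells with Slc17a6 and at least 500 genes held under 3000 counts, and 2 of them had Nr5a1.

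Depth was higher in the detected wells of 5 of 6 mice. The ratio of median counts per well, detected over undetected, was 1.14 as a geometric mean, or 0.18 ± 0.18 on the log2 scale (SD, n = 6, range -0.11 to 0.43; two-sided exact sign-flip permutation p = 0.0938, smallest possible 0.031). For genes per well the ratio was 1.08 (exact permutation p = 0.0625). Male 2 was the exception, with medians of 6108.5 counts in detected and 6612 in undetected wells. A deeper well is more likely to yield a count of Nr5a1, so the split itself favours deeper detected wells. These tests therefore cannot show a difference between the classes beyond the way wells were split. Female 2 stood apart in number of wells: 87 of its wells held under 3000 counts, so that its sums rest on 2 detected and 3 undetected wells with 7756 and 11377 counts, against 154575 to 493467 counts in the sums of the other mice. Results that turn on female 2 are therefore also given without it.

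The labels were checked against marker lists. Neuronal markers summed to 4126 to 6317 CPM in detected and 4922 to 6262 CPM in undetected sums. The VMH marker list, without Nr5a1 and Slc17a6, which chose the wells, held 4 genes (Fezf1, Nkx2-1, Adcyap1 and Bdnf). They summed to 373, 538 and 719 CPM (lowest, median, highest) in detected and 370, 525 and 617 CPM in undetected sums, higher in detected wells of 4 of 6 mice, and the classes overlapped. Astrocyte markers reached at most 24.5 CPM in any sum, and of 6 microglial markers 4 were at 0 in all wells. Oligodendrocyte-lineage markers held 69 counts in detected and 79 in undetected wells, at most 93.3 CPM, higher in detected wells of 4 mice and lower in 1. Tanycyte and ependymal markers held 48 and 63 counts and endothelial and mural markers 7 and 13, each at most 87.9 CPM. The 10 markers of the neighbouring arcuate nucleus held 204 counts in detected and 1091 in undetected wells and were lower in detected wells of 5 of 6 mice, at 16.8, 75.6 and 882 CPM (lowest, median, highest) against 0, 327 and 1465 CPM. Th and Otp of this list were at 0 in every well, and Pomc, the precursor of alpha-MSH in arcuate neurons, supplied most of its counts, 156 and 839. At least 10 Pomc counts were found in 1 of 135 detected and 8 of 232 undetected wells. A count of a GABAergic gene was in 19 detected and 32 undetected wells. The 13 markers of other hypothalamic nuclei held 16 and 1237 counts, of which 1195 were Pmch counts of 1 undetected well of female 3. When the GABA-gene and Pomc-rich wells were left out, 21 genes differed by detection, 15 of them among the 23 found with all wells.

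Of 3562 genes tested, 15 were higher (0.421%) and 8 lower (0.225%) in Nr5a1-detected neurons at an adjusted p under 0.05, together 0.646% (edgeR quasi-likelihood test on summed counts with mouse as a block, Benjamini-Hochberg adjustment over the 3562 genes). At an unadjusted p under 0.05 there were 300. DESeq2 with the same design found 6 genes (0.168%), all among the 23: Mt1, Mt2, Calb1, Pdyn, Tagln3 and Hpcal1. Of the 23 genes, Mt1, Mt2, Calb1 and Pdyn passed in each of the 6 edgeR fits that left out 1 mouse, and Mt3, Tagln3, Pdha1 and Hpcal1 passed in 5. Leaving out a mouse gave between 10 and 28 genes, with 10 without male 3, 11 without female 3, 14 without male 1 and 15 without female 2. Regardless of any test, 72 of the 3562 genes (2.02%) were higher and 76 (2.13%) lower in 6 of 6 mice, and 12.3% each were higher or lower in 5 or 6. Because detected wells were deeper, the comparison was repeated with each well thinned to 3000 counts, which gave 6 genes of 1569 tested, 5 of them shared (Mt1, A230065H16Rik, Pdyn, Tagln3 and Hpcal1), and on pairs of wells matched for total counts, which gave 7 genes of 3070, 5 of them shared (Mt1, A230065H16Rik, Calb1, Pdyn and Rprm). When the thinned wells were also regrouped by the Nr5a1 counts that were left, 1 gene of 1161 passed, Snap25. There Mt1 was at a log2 fold change of 0.74 (edgeR adjusted p = 0.123) and Pdyn at 0.21 (edgeR adjusted p = 0.928). Of the 8 lower genes, Hpcal1 passed in thinned wells and Rprm in matched wells, and no other did in either, Rnd1 and Comtd1 being too low to test in thinned wells.

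**Figure D1:**
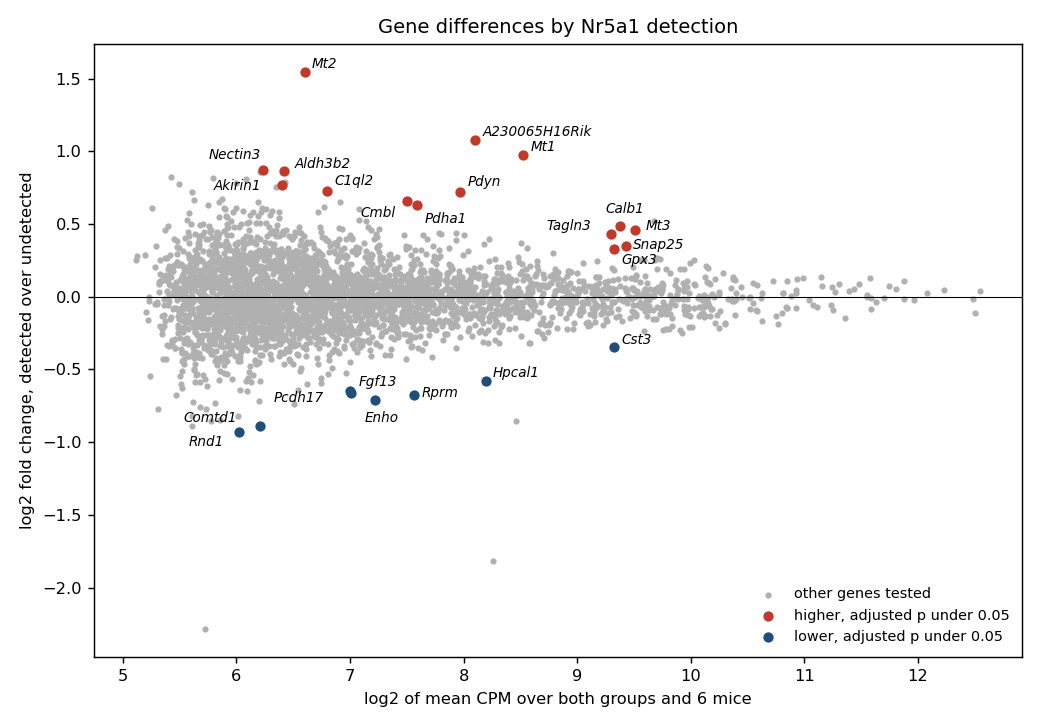
Each point is 1 of the 3562 tested genes. The x axis is the log2 of the mean CPM over both classes and 6 mice, and the y axis the fitted log2 fold change, Nr5a1-detected over undetected. Red points are the 15 genes higher and blue points the 8 genes lower at an edgeR adjusted p under 0.05, and grey points are the other genes.

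Mt1 was at 314, 437 and 682 CPM (lowest, median, highest of 6 mice) in detected and at 109, 250 and 615 CPM in undetected neurons. It was higher with Nr5a1 in 5 of 6 mice, and the exception was female 2, whose 3 undetected wells gave the 615. Without that mouse the classes did not overlap, with 314 to 682 CPM against 109 to 274 CPM. The log2 fold change was 0.97 ± 0.12 (SE; edgeR adjusted p = 2.82e-13), a fold of 1.96, and without female 2 it was 1.00 (edgeR adjusted p = 5.39e-06). Mt1 was counted in 71.6% ± 9.57 of detected and 45.6% ± 10.8 of undetected wells (SD, n = 5 mice without female 2). After thinning to 3000 counts these shares were 54.2% ± 12.6 and 31.7% ± 13.7, and the detected share was the higher in 5 of 5 mice. No cell class that should lack metallothionein mRNA was available as a background for these shares.

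Mt2 was lower in level, at 56.2, 133 and 387 CPM in detected and 0, 35.3 and 62.8 CPM in undetected neurons, and was higher with Nr5a1 in 6 of 6 mice. The lowest detected and highest undetected sums overlapped slightly. The log2 fold change of Mt2 was 1.55 ± 0.23 (SE; edgeR adjusted p = 2.50e-08), a fold of 2.92, on 130 and 69 counts. Female 2 gave the 387 and the 0 CPM, on 3 and 0 counts. Without that mouse the log2 fold change was 1.51 (edgeR adjusted p = 2.08e-04). In wells of at least 6000 counts it was 1.36 and did not pass (edgeR adjusted p = 0.285). Mt2 was too low to test in thinned wells, in matched wells and at 2 or more Nr5a1 counts. Mt3, the brain metallothionein, stood at 498, 857 and 1289 CPM in detected and 408, 607 and 802 CPM in undetected neurons and was higher in 6 of 6 mice. Its log2 fold change was 0.46 ± 0.08 (SE; edgeR adjusted p = 4.10e-05). This call was lost when female 3 was left out, in the DESeq2 fit (adjusted p = 0.138), in thinned wells (0.39, edgeR adjusted p = 0.139) and in matched wells (0.26, edgeR adjusted p = 0.419). Mt1 and Mt2 are close relatives, and the sources used here do not say how reads that match both were counted.

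Pdyn encodes prodynorphin, the precursor of dynorphin opioid peptides, and Calb1 encodes the calcium buffer calbindin. Pdyn (chr2:129686565-129699844, minus strand) was at 245, 332 and 386 CPM in detected and 87.9, 193 and 304 CPM in undetected neurons, higher in 6 of 6 mice though the ranges overlapped. Its log2 fold change was 0.72 ± 0.13 (SE; edgeR adjusted p = 1.05e-05), a fold of 1.65, and 0.21 in the thinned and regrouped wells. Of 17 neuropeptide and trophic factor genes 8 were tested, and Pdyn was the 1 that passed. Calb1 (chr4:15881264-15908064, plus strand) was at 516, 790 and 1080 CPM against 176, 549 and 875 CPM. Each mouse had more Calb1 in its detected neurons, while the spread between mice was wide enough for the classes to overlap. For Calb1 the log2 fold change was 0.49 ± 0.08 (SE; edgeR adjusted p = 3.60e-06), and the adjusted p was 0.0869 in thinned wells, where fewer genes and counts were tested. Female 2 held 2 and 1 counts of Pdyn and 4 and 2 of Calb1 in its detected and undetected wells. Without it the log2 fold changes were 0.72 and 0.48 (edgeR adjusted p = 9.83e-04 and 1.55e-04).

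**Figure D2:**
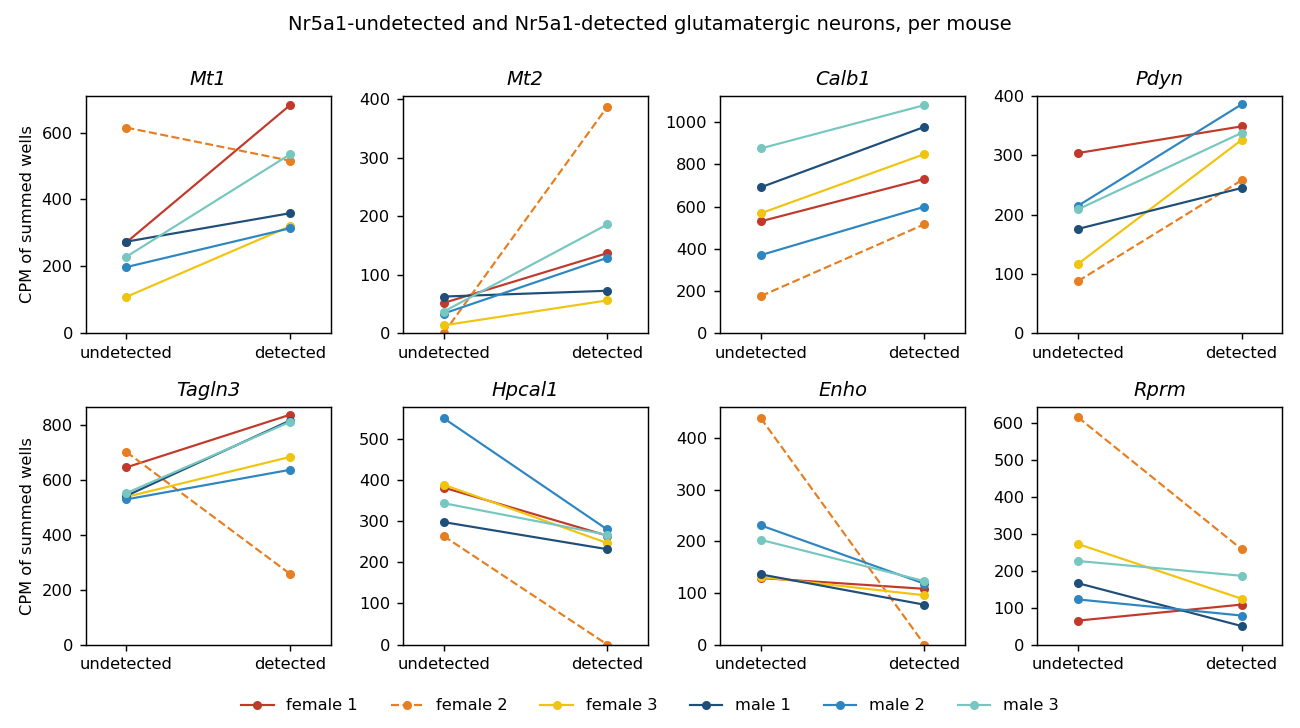
CPM of the summed wells (y axis, from 0) in Nr5a1-undetected and Nr5a1-detected neurons, with 1 line per mouse and female 2, which rests on 5 wells, dashed. Calb1, Pdyn and Mt2 were higher with Nr5a1 in 6 of 6 mice and Enho and Hpcal1 lower in 6 of 6, while for Mt1 and Tagln3 female 2 went against the other 5 mice.

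Tagln3, a neuronal calponin-family protein gene, was at 258, 749 and 839 CPM in detected and 530, 548 and 703 CPM in undetected neurons. It was higher in 5 of 6 mice and lower in female 2. Its log2 fold change was 0.43 ± 0.09 (SE; edgeR adjusted p = 2.34e-04), and 0.45 without female 2 (edgeR adjusted p = 6.86e-04). The edgeR call was lost without male 3 and in matched wells (edgeR adjusted p = 0.0649). Snap25, a SNARE protein gene of synaptic vesicle fusion, showed 0, 783 and 1415 CPM against 176, 573 and 1159 CPM, with the 0 in female 2. For Snap25 the log2 fold change was 0.35 ± 0.08 (SE; edgeR adjusted p = 0.00560), lost without male 2 or male 3. It was the 1 of 11 tested genes of mature neurons and synapses to pass, and the median of those 11 was 0.01.

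The other higher genes were less abundant or less stable. Pdha1, a subunit of the mitochondrial pyruvate dehydrogenase, was at 129, 245 and 365 CPM against 0, 162 and 207 CPM and higher in 6 of 6 mice (log2 fold change 0.63 ± 0.14 SE, edgeR adjusted p = 0.00138, lost without female 3). The 129 and the 0 came from female 2, on 1 and 0 counts. Without that mouse the log2 fold change was 0.62 (edgeR adjusted p = 0.00646). A230065H16Rik was at 216, 334 and 903 CPM against 0, 141 and 239 CPM, with a log2 fold change of 1.08 ± 0.20 (SE; edgeR adjusted p = 0.00985). Its call was lost without female 2 or male 3 (edgeR adjusted p = 0.340 without female 2), yet it passed in thinned wells (edgeR adjusted p = 6.92e-08). Cmbl, a hydrolase gene, was higher in 6 of 6 mice with a log2 fold change of 0.66 (edgeR adjusted p = 0.0337), and passed in 1 of the 6 fits without a mouse, the one without male 3. Nectin3, a cell adhesion gene, Aldh3b2, an aldehyde dehydrogenase gene, Akirin1 and C1ql2, which encodes a secreted synaptic organizer, had log2 fold changes of 0.87, 0.86, 0.77 and 0.73 and adjusted p from 0.0144 to 0.0380 in edgeR. Each was higher in 5 of 6 mice and each lost its call without female 2, at adjusted p of 0.0533 to 0.0781. Gpx3, a glutathione peroxidase gene, passed (log2 fold change 0.33, edgeR adjusted p = 0.0201) while higher in 4 of 6 mice, and its call was lost without female 2, female 3, male 2 or male 3.

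Among the 8 lower genes, Hpcal1, Enho and Fgf13 were lower with Nr5a1 in every mouse. In female 2 this direction rests on 0 detected counts of each, against 3, 5 and 1 undetected counts. Hpcal1, a neuronal calcium sensor gene (chr12:17690856-17791933, plus strand), was at 0, 256 and 280 CPM in detected and 264, 363 and 551 CPM in undetected neurons. Female 2 supplied both the 0 and the 264, and the other 5 mice did not overlap, at 232 to 280 CPM against 298 to 551 CPM. The log2 fold change was -0.58 ± 0.12 (SE; edgeR adjusted p = 4.98e-04), lost without male 2. It was -0.41 without GABA-gene and Pomc-rich wells (edgeR adjusted p = 0.137), -0.38 in matched wells (edgeR adjusted p = 0.413), -0.48 in wells of at least 6000 counts (edgeR adjusted p = 0.107) and -0.42 at 2 or more Nr5a1 counts (edgeR adjusted p = 0.213), and passed in none of these. Enho, which encodes the secreted peptide adropin, was at 0, 102 and 123 CPM against 129, 169 and 439 CPM, so that the classes did not overlap. The log2 fold change of Enho was -0.71 ± 0.17 (SE; edgeR adjusted p = 0.00985), lost without any of the 3 males.

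Rprm encodes reprimo, a cell cycle protein, and is used as a marker of ventrolateral VMH neurons. It was at 50, 116 and 258 CPM in detected and 64.7, 196 and 615 CPM in undetected neurons, lower in 5 of 6 mice, with female 1 the other way. Its log2 fold change was -0.68 ± 0.16 (SE; edgeR adjusted p = 0.00825), lost without female 2 (adjusted p = 0.113), female 3 or male 1. Of 10 ventrolateral VMH genes 3 were tested. Beside Rprm these were Tmem35a, at a log2 fold change of 0.34 (edgeR adjusted p = 0.0836), and Tac1, at 0.52 (edgeR adjusted p = 0.799). Both lay above 0, so the tested genes of this list did not share the direction of Rprm. Esr1, the estrogen receptor alpha gene, held 3 counts in detected and 22 in undetected wells and was too low to test. Its level was lower in detected wells of 4 mice and higher in 1, and female 3 gave 12 of the 22 undetected counts. Esr1 was named after its values were seen. It had a count in 2 of 135 and 16 of 232 wells, and in the thinned wells in 1 and 11.

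Fgf13, an intracellular fibroblast growth factor homologue that modulates sodium channels, was at 0, 92.3 and 152 CPM against 87.9, 172 and 218 CPM, lower in 6 of 6 mice (log2 fold change -0.66 ± 0.16 SE, edgeR adjusted p = 0.0125). The 0 and the 87.9 came from female 2, and without that mouse the log2 fold change was -0.66 (edgeR adjusted p = 0.0295). Cst3, the protease inhibitor cystatin C, was at 520, 605 and 774 CPM against 264, 680 and 1022 CPM, lower in 5 of 6 mice, with a log2 fold change of -0.35 ± 0.09 (SE; edgeR adjusted p = 0.0125). Both passed in 3 of the 6 fits without a mouse: the call for Fgf13 was lost without female 3, male 1 or male 2, and that for Cst3 without female 1, male 1 or male 3. Rnd1 and Comtd1, a putative methyltransferase gene, had log2 fold changes of -0.93 (edgeR adjusted p = 0.0144) and -0.89 (edgeR adjusted p = 0.0351) on 55 and 53 detected counts. Rnd1 passed in 3 of the 6 fits without a mouse and Comtd1 in 1. Comtd1 shares exonic sequence with Vdac2 on the opposite strand, as Enho does with Dnaic1, Pdha1 with Map3k15 and Mt2 with a predicted gene, and the sources used here do not say whether strand was used in counting. Pcdh17, a protocadherin gene, passed with all mice (log2 fold change -0.65, edgeR adjusted p = 0.0372) and in none of the 6 fits that left out a mouse. The arcuate marker Isl1 had a log2 fold change of -0.89 (edgeR adjusted p = 0.0812), lower in detected wells of 3 mice and higher in 2. Without GABA-gene and Pomc-rich wells the calls for Hpcal1, Cst3 and Rnd1 were lost (edgeR adjusted p = 0.137, 0.183 and 0.0828). In that fit Fgf13, Rprm, Pcdh17, Comtd1 and Enho still passed (edgeR adjusted p from 0.00470 to 0.0463). The higher genes Nectin3, Aldh3b2, C1ql2 and Cmbl also lost their calls there (edgeR adjusted p from 0.0764 to 0.129). The cause was not tested.

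**Figure D3:**
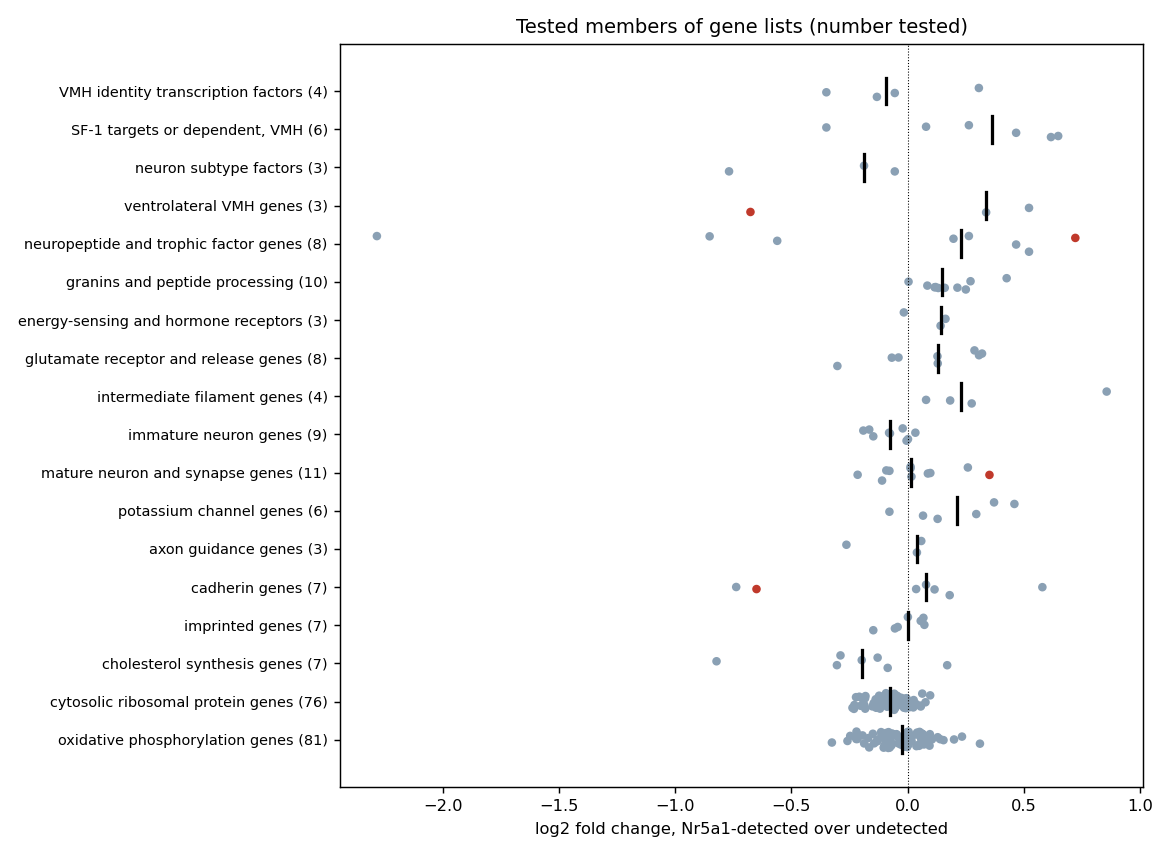
Fitted log2 fold changes, Nr5a1-detected over undetected (x axis), of the tested members of 18 gene lists (y axis, number tested in brackets), with 1 point per gene and a black bar at the median of each list. Red points passed at an edgeR adjusted p under 0.05: Rprm, Pdyn, Snap25 and Pcdh17. The ribosomal list lay mostly below 0 and the granin list at or above 0, with no member of either passing.

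Genes described as targets of SF-1, or as dependent on it, in the VMH numbered 12, and 6 were abundant enough to test. None passed. Values were above 0 in 5 of the 6 (83.3%), against 50.8% of all 3562 genes. Their median log2 fold change was 0.36, against 0.00 for all 3562 genes. Amigo2, an adhesion protein gene, was at 123, 133 and 162 CPM in detected and 68.9, 83.0 and 176 CPM in undetected neurons, higher in 5 of 6 mice. Female 2 gave the 176, and its value stood against those of the other 5 mice. The log2 fold change of Amigo2 was 0.65 ± 0.18 (SE; edgeR adjusted p = 0.0623), and it passed with the limit on wells at 1500 counts (edgeR adjusted p = 0.0402). It was counted in 54.9% ± 8.39 of detected and 35% ± 8.17 of undetected wells, and in 30.1% ± 4.83 and 18.4% ± 5.92 after thinning (SD, n = 5 mice).

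Nptx2, a neuronal pentraxin gene, had a log2 fold change of 0.62 ± 0.19 (SE; edgeR adjusted p = 0.105), and Adcyap1, the gene of the neuropeptide PACAP, one of 0.47 ± 0.16 (SE; edgeR adjusted p = 0.153). Adcyap1 was at 129, 168 and 241 CPM against 101, 133 and 176 CPM, higher in 4 of 6 mice. Bdnf, the neurotrophin gene, stood at 0.26 ± 0.15 (SE; edgeR adjusted p = 0.628), and its value turned below 0 in thinned wells, at -0.18. Cdh4, a cadherin gene, was at 0.08, and Fezf1, a VMH transcription factor gene, at -0.35 ± 0.14 (SE; edgeR adjusted p = 0.360). Crhr2, a corticotropin-releasing hormone receptor gene, fell below the filter with 31 counts in detected and 17 in undetected wells, with the higher level in detected wells of 5 mice and 0 counts in female 2. Cnr1, the cannabinoid receptor gene, had 47 and 41 counts. Sema3a, Slit3, Nr0b1 and Vgll2 had 13, 7, 36 and 27 counts in detected and 13, 10, 39 and 71 in undetected wells. The median level of Vgll2 was lower in detected wells, at 20.7 against 36.9 CPM, while those of Sema3a, Slit3 and Nr0b1 were higher.

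Transcription factor genes of VMH identity showed no member past the threshold. Of 16, 4 were tested, with log2 fold changes of -0.35 in Fezf1, -0.13 in Nr2f2, -0.06 in Sox14 and 0.31 in Lmo3 (edgeR adjusted p from 0.360 to 0.960). Fezf1 was at 118, 149 and 292 CPM in detected and 164, 185 and 283 CPM in undetected neurons, and the ranges overlapped. It had a count in 50.9% ± 10.3 and 50.8% ± 1.87 of wells (SD, n = 5 mice). Nkx2-1, a homeobox gene needed for the ventral hypothalamus, was too low to test at 19 and 41 counts. Nr0b1, which encodes DAX-1, an SF-1 partner, had 36 and 39 counts. The remaining 10 untested members had 0 to 27 counts in detected wells, too few to test at this depth. Of 14 SF-1 targets of steroid-producing tissue 1 was tested, with a log2 fold change of 0.11.

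In several lists the values leaned one way without any member passing. Of all 3562 tested genes, 50.8% had values above 0. All 10 tested granin and peptide-processing genes had values at or above 0, with a median of 0.15. Scg2, a secretogranin gene, had 0.25 ± 0.07 (SE; edgeR adjusted p = 0.0699), higher in 5 of 6 mice. Of 76 ribosomal protein genes 64 had values below 0, with a median of -0.08. Of the 76, 31 (40.8%) were lower in 5 or 6 mice, against 12.3% of all tested genes. Of 7 tested cholesterol synthesis genes 6 had values below 0 and 5 (71.4%) were lower in 5 or 6 mice, with Nsdhl at -0.82 (edgeR adjusted p = 0.0812). Krt18, a keratin gene, was higher in 6 of 6 mice at 0.86 ± 0.27 (SE; edgeR adjusted p = 0.105). The 81 oxidative phosphorylation genes had a median of -0.03, and 3 tested energy-sensing receptor genes lay between -0.02 and 0.16.

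Levels were set out by Nr5a1 count as a description in the 5 mice other than female 2. Nr5a1 itself was at 0, 141 and 303 CPM in wells with 0, 1 and 2 or more counts. Tagln3 was at 562 ± 48.0, 709 ± 69.1 and 819 ± 114 CPM (SD, n = 5), and Cmbl at 95.4 ± 35.4, 120 ± 32.7 and 198 ± 50.5 CPM. Both were higher at each step in 5 of 5 mice. Mt1 instead was at 216 ± 67.8, 447 ± 148 and 438 ± 197 CPM, and Pdyn at 204 ± 68.0, 330 ± 53.3 and 324 ± 145 CPM, so that wells with 1 count were already at the level of those with more. Amigo2 was at 85.7 ± 19.1, 129 ± 31.1 and 168 ± 44.8 CPM. Among lower genes Cst3 was at 751 ± 162, 618 ± 61.4 and 515 ± 93.5 CPM, while Hpcal1 was at 393 ± 95.7, 237 ± 59.5 and 283 ± 63.9 CPM. Wells with 2 or more counts were also deeper: their median depth was 0.33 above that of wells with none on the log2 scale (6 mice, two-sided exact sign-flip permutation p = 0.031, the smallest possible). A deeper well is more likely to yield 2 or more counts, so the split itself favours this direction.

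**Figure D4:**
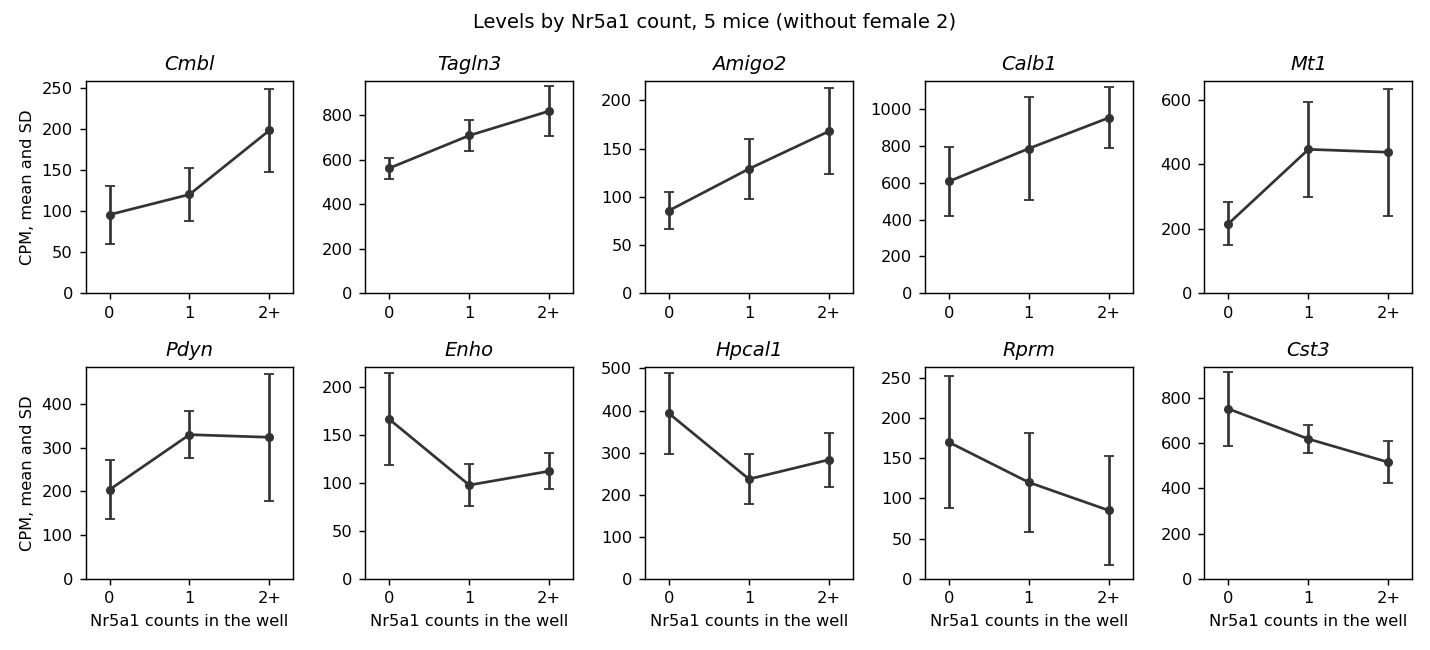
CPM (y axis, from 0) in the summed wells with 0, 1 and 2 or more Nr5a1 counts (x axis), as means with SD over 5 mice, without female 2. Tagln3 and Cmbl were higher at each step in 5 of 5 mice, whereas Mt1 and Pdyn differed between 0 and 1 count and had similar means at 1 and at 2 or more.

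The effect of Nr5a1 detection was compared between the sexes by the interaction term. Of 3562 genes 3 passed (0.0842%): Tac1, Pomc and Cartpt, which all encode neuropeptide precursors (105 at an unadjusted p under 0.05). None of the 23 genes that differed by detection was among them. DESeq2 found 1, Tac1 (33 at an unadjusted p under 0.05), and limma on the mean CPM per well found 0 (25 at an unadjusted p under 0.05).

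Tac1, the precursor of substance P and neurokinin A, was at 1109, 0 and 1101 CPM in detected and 1514, 439 and 1131 CPM in undetected neurons of females 1, 2 and 3. In males 1, 2 and 3 it was at 1245, 762 and 1084 CPM in detected and 640, 215 and 557 CPM in undetected neurons. Detected neurons were thus higher in 3 of 3 males, where the classes did not overlap. In females 1 and 3 they were lower, though female 3 was nearly level, and female 2 rested on 0 against 5 counts, all 5 in 1 well. The interaction was 1.37 ± 0.16 on the log2 scale, male minus female (SE; edgeR adjusted p = 4.17e-15, DESeq2 adjusted p = 0.00509). It was 1.34 without female 2 (edgeR adjusted p = 2.65e-05) and 1.46 in thinned wells (edgeR adjusted p = 3.22e-08). It did not pass in wells of at least 6000 counts (1.37, edgeR adjusted p = 0.383), with at least 2 Nr5a1 counts (0.52, edgeR adjusted p = 1.00), after thinning and regrouping (0.73, edgeR adjusted p = 0.982) or in limma on mean log2 values per well without female 2 (0.32, adjusted p = 0.993).

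Single wells carried much of the Tac1 count. The well richest in Tac1 held 43.1%, 44.1% and 40.8% of the Tac1 counts of the detected neurons of males 1, 2 and 3, and 12.3%, 23.5% and 25.8% of those of the undetected neurons. Without that well in each class the levels were 754, 447 and 683 CPM in detected and 572, 171 and 421 CPM in undetected male neurons, still higher in 3 of 3. In females 1, 2 and 3 they were 921, 0 and 798 CPM in detected and 1248, 0 and 810 CPM in undetected neurons. The share of wells with a Tac1 count was 38.1%, 50% and 35.7% in detected and 42.4%, 34.3% and 35.2% in undetected male neurons. These shares were close in males 1 and 3, so there the difference lay in the counts per well more than in the number of wells.

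Pomc and Cartpt rested on few wells. Pomc was at 14.7, 129 and 809 CPM in detected neurons of females 1, 2 and 3, of which a single well of female 3 gave 140 of 144 counts, and at 7.43 to 18.2 CPM in detected neurons of males. In undetected neurons Pomc ranged from 0 to 914 CPM in females and from 134 to 1364 CPM in males. The interaction was -5.11 ± 0.39 (SE; edgeR adjusted p = 8.08e-36), but the DESeq2 adjusted p was 0.750. Cartpt held 21 counts in detected and 169 in undetected neurons, 52.4% of the former in 1 well, and its interaction of -4.64 ± 0.84 (SE; edgeR adjusted p = 4.49e-05) had a DESeq2 adjusted p of 0.140. Without female 3 both genes were too low to test, and so was Cartpt without male 1 or male 3. With same-numbered females and males joined as a block, the interaction of Cartpt was -3.69 and did not pass (edgeR adjusted p = 0.205).

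**Figure D5:**
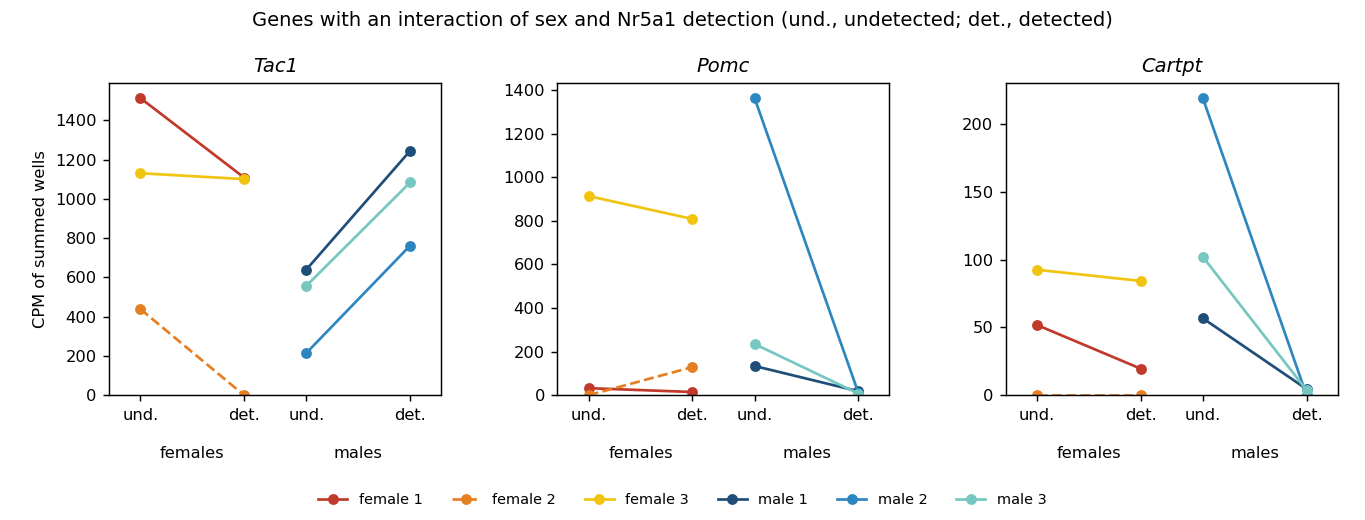
CPM of the summed wells (y axis, from 0) of Tac1, Pomc and Cartpt in Nr5a1-undetected and Nr5a1-detected neurons of females (left pair) and males (right pair), with 1 line per mouse and female 2 dashed. Tac1 was higher in detected neurons of 3 of 3 males, while in females the clear difference was that of female 1, and the Pomc level of female 3 in detected neurons came from 1 well.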

How the data were processed

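Single-cell libraries (BD Precise whole transcriptome kit, papain-dissociated and sorted cells, per the labels' protocols) were made from 6 mice, 1 plate each. The authors deposited whole-number counts per gene and well for 21926 genes and every well, without scaling. The submitters' processing notes name HTSeq and mm10. The sources used here do not give versions, the aligner, the strand setting or whether molecules or reads were counted. Summed counts of the detected and undetected wells of each mouse ranged from 7756 to 493467. Plates share the 96 well names, which are positions and not cell barcodes, and no doublet caller was run.

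Counts were summed per mouse and Nr5a1 class, 12 sums, and tested with edgeR 4.0.16 (TMM, filterByExpr, robust quasi-likelihood, mouse as a block, threshold 0.05 after Benjamini-Hochberg adjustment) in R 4.3.3. Nr5a1, Slc17a6 and 13 mitochondrial genes stayed in the library sizes and out of the tests, because they chose the wells. DESeq2 1.42.0, limma 3.58.1 (log2 of CPM plus 1), other well limits, thinning, matched depth and leaving out each mouse were alternatives (41 planned, 6 added after seeing the data). Counts were also simulated from the mean levels of each mouse and the gene dispersions that edgeR estimated from these data. In these simulated data, the fit by detection recovered 32.8%, 94.4% and 100% of genes changed by 0.5, 1 and 1.5 on the log2 scale. The interaction fit recovered 6.56%, 31.7% and 70.6% of such genes. A gene that did not pass may therefore still differ, above all in the interaction. Unchanged genes made up 4 of 139 calls by detection and 0 of 72 by interaction. The simulation took the fitted model as true and held no single wells rich in a gene. These counts therefore cannot show how often calls in the real data are false. Single values had exact permutation tests in Python 3.11.15. Intervals cover counting error only. Each SE of an edgeR log2 fold change was computed from that value and the F statistic of its test. It is not the SD of the gene between mice. The pairing comes from the design, since both sums of a mouse come from 1 plate, and their deviations correlated at 0.16 to 0.41, each sum best with its own mouse.

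Genes were named if they passed the threshold with a mean of 20 CPM or more in a class and 1 direction in at least 5 of 6 mice, or were in the SF-1 or VMH factor lists. Other named genes (Gpx3, Isl1, Krt18, Scg2, Nsdhl, Tmem35a, Esr1 and Pmch) were chosen after their values were seen. The classes and the 20 gene lists were chosen with earlier results of these data known, so no list is independent evidence. Positions are from GENCODE vM21 and RefSeq (GRCm38). Of the genes named as higher, lower or in the SF-1 list, 11 of 15, 6 of 8 and 10 of 12 had a RefSeq promoter. A230065H16Rik is named without a position.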

Additional observations from a re-analysis of the deposited data

Results flagged for a closer look

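Female 2, with 2 detected and 3 undetected wells, lay far from the other 5 mice in 8 of the 38 values examined in this way, where chance sets off about 1 in 20. That rate does not allow for a mouse with so few wells. All 8 were gene ratios, detected over undetected level on the log2 scale. The ratios of female 2 were 1.40 for Calb1, -1.21 for Tagln3, -1.77 for Snap25, -2.91 for Enho, 2.87 for Pcdh17, -2.25 for Hpcal1, 1.45 for Cst3 and 2.14 for Lmo3. They rest on 0 to 8 counts per class, and 0.5 was added to each so that 0 counts had a log2 value. The ratios of the other 5 mice were 0.30 to 0.69 for Calb1, 0.27 to 0.59 for Tagln3 and -0.97 to -0.35 for Hpcal1. In Tagln3, Snap25, Pcdh17 and Cst3 female 2 went against the direction of the fit.

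The effect of Nr5a1 detection differed between the sexes by the edgeR interaction test for Tac1 (1.37 on the log2 scale, male minus female), Pomc (-5.11) and Cartpt (-4.64). Tac1 also passed in DESeq2.

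Among wells outside the comparison, 14 of the 58 that passed the cell limits without a Slc17a6 count had a count of Nr5a1, 6 of them in female 1.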

How the results depend on the processing

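The 23 genes found by detection became 6 with DESeq2, 11 in wells of at least 6000 counts, 6 in thinned wells, 1 in thinned wells regrouped by the Nr5a1 counts that were left, 7 in depth-matched wells and 0 with limma on mean CPM per well (74 at an unadjusted p under 0.05). Leaving out 1 mouse gave 10 to 28. Without female 2, an alternative chosen after seeing the data, limma found 8 on mean CPM and 12 on mean log2 values, and DESeq2 found 2. RLE scaling gave 23 and no filter 31, of which 10 were higher and 21 lower. The 3 interaction genes became 1 with DESeq2, in thinned wells and in matched wells, and 0 with limma, at 2 Nr5a1 counts and after regrouping. Leaving out a mouse gave 2 to 4. Without female 2, limma found 0 on either scale and DESeq2 found 1. The sex difference in the Nr5a1 share turned to 2.55 points at a limit of 1500 counts and was -13.1 to -1.24 points without 1 mouse. The depth difference was 0.33 (log2) at 2 Nr5a1 counts and 0.14 to 0.24 without 1 mouse. The cause was not tested.

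With no replicate block for mouse, 0 genes passed by detection (69 at an unadjusted p under 0.05 in edgeR). With a replicate block that joined same-numbered females and males, 2 interaction genes passed, and the share difference stayed at -7.66 points (exact permutation p = 1.00). Whether the numbers pair animals cannot be told from 3 mice per sex. Same-numbered females and males correlated at -0.12, -0.09 and 0.10, and only female 3 correlated best with the male of its number.

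Values that changed sign under limma on mean CPM were Nectin3 (-0.32), C1ql2 (-0.49), Snap25 (-0.88), Pcdh17 (0.50), Nr2f2 (0.10), Bdnf (-0.95) and Tac1 (-0.99). Without female 2, limma gave Nr2f2 0.0566 and 0.0671. Sox14 was 0.24 at 6000 counts and ranged from -0.34 to 0.22 without 1 mouse, above 0 without female 1 or male 3. In matched wells Lmo3 was -0.12 and Cdh4 -0.0570. Cdh4 was -0.0539 without GABA-gene and Pomc-rich wells and ranged from -0.0093 to 0.17 without 1 mouse, below 0 without female 1 or male 3. Thinning gave Bdnf -0.18, and regrouping gave Gpx3 -0.13. Genes near 30 CPM rest on few counts per class, which limits what can be detected.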
